A study of Danio rerio with 14 samples.

Results

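The genes described here encode the mTOR complexes and the proteins that report amino acids, energy and insulin to them. The set was defined by a list of 50 gene symbols, of which 49 were found among the 39289 features of the table and all 49 were among the 17437 genes tested. The symbol fnip2 was not among the features. A gene with the same NCBI identifier is listed under the clone name si:ch211-42i9.8, and because the list went by symbol it was not counted. RNA was sequenced from pooled ventricles of adult zebrafish in 14 libraries. The transgenic lines carried human TMEM43, a membrane protein of the nuclear envelope and endoplasmic reticulum, fused to eGFP. Expression was driven in cardiomyocytes by the myl7 promoter from randomly inserted Tol2 transgenes, and each library pooled up to 7 ventricles. There were 4 TMEM43-WT libraries with the unchanged human protein (replicates 1, 4, 5 and 6, at 5, 18, 20 and 19 months) and 3 TMEM43-P111L libraries (TMEM43-p.P111L in the labels, replicates 2, 3 and 4, at 5, 20 and 19 months). P111L and S358L are amino acid exchanges in the human protein. There were 4 TMEM43-S358L libraries (TMEM43-p.S358L in the labels, replicates 1 to 4, at 5, 5, 5 and 19 months) and 3 non-transgenic libraries (NTG, wild-type by genotype, replicates 2, 3 and 4, at 5, 5 and 21 months). All fish were of strain TL1 and untreated. Ages are those of the sample labels, whereas the text of the study gives 5 months for the sequenced fish. The labels do not say which libraries share parents, so p-values measure the spread between these pools.

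In vertebrate cells the kinase mTOR works in complexes. mTORC1 promotes protein synthesis and restrains autophagy when nutrients are plentiful, and mTORC2 phosphorylates Akt. Amino acids act through the GATOR complexes, which control the Rag GTPases that bring mTORC1 to the lysosome on the Ragulator scaffold, while insulin acts through PDK1 and Akt on the TSC complex, which switches off the GTPase Rheb. In the heart the pathway is known for its part in cardiomyocyte growth. The roles given below are those described mainly in mammals.

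Values are CPM, the usual unit of reads scaled to library size (here with TMM factors), listed in the order of replicate number given above. To be called, a gene needed an adjusted p below 0.05 and a log2 fold change of 0.05 or more in either direction in edgeR's quasi-likelihood test, with Benjamini-Hochberg adjustment over all tested genes, and every adjusted p below is from this test. Libraries held 20621770 to 32418475 reads, with TMM factors of 0.8243 to 1.137. The summed level of 8 cardiomyocyte markers was 67700 to 101000 CPM in the transgenic lines and 81100 to 94200 CPM in NTG. Among these markers only tnni1b was called, higher and for the TMEM43-P111L line alone. Its libraries there held 2490 to 2660 CPM, against 1480 to 1810 CPM for NTG (0.64 on the log2 scale, adjusted p = 0.049). Of markers of other cells, the leukocyte gene ptprc was called higher in all 3 lines (log2 fold change 1.11, 1.42 and 0.95 in lines TMEM43-WT, TMEM43-P111L and TMEM43-S358L), as 1 of 6 leukocyte markers, whose summed level was 362 to 598, 226 to 639 and 300 to 390 CPM in these lines and 272 to 304 CPM in NTG. Of 8 epicardial and fibroblast markers tcf21 was called higher in all 3 lines (1.32, 1.26 and 1.12) and wt1a lower in TMEM43-WT (-1.37, adjusted p = 0.0479), the other 6 were not called, and the summed level was 821 to 2240 CPM in the lines and 1140 to 1820 CPM in NTG. By contrast, 0 of 7 endothelial markers were called in any line. The summed smooth muscle markers stood at 158 to 325 CPM in TMEM43-P111L, 484 to 1010 CPM in the other lines and 444 to 632 CPM in NTG. Of these, acta2 was called lower in TMEM43-P111L (-2.37, adjusted p = 0.00379). The smooth muscle gene cnn1b was called higher in TMEM43-WT and TMEM43-S358L (1.06 and 1.14, adjusted p = 0.00716 and 0.00596). The atrial myosin gene myh6 stood at 11.2 to 82.7 CPM in the lines and 9.38 to 18.5 CPM in NTG. It was called higher in TMEM43-P111L and TMEM43-S358L (1.93 and 1.79, adjusted p = 0.0289 and 0.038). The thrombocyte marker thbs1b was called higher in TMEM43-WT (0.94, adjusted p = 0.0483). Of 8 fast skeletal muscle markers, the creatine kinase gene ckmb was called lower in all 3 lines, with 35.4 to 115 CPM in the lines and 287 to 1210 CPM in NTG (-3.04, -4.02 and -3.52), and the parvalbumin gene pvalb2 was called lower in TMEM43-WT (-4.27, adjusted p = 0.0395). The paralog ckma stood at 3130 to 6570 CPM over all libraries and was not called, whereas mylpfa, tnnt3b, myhz1.1 and myhz2 were below 1 CPM in every library. The part of these marker changes in the results below was not tested. In such bulk samples fewer cells of a type and less RNA per cell cannot be told apart. Endogenous tmem43 was not called in any line.

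Per kilobase of exon, the most abundant genes of the set were those of translation repressors, a Ragulator subunit, an Akt kinase and a stress-responsive inhibitor of mTORC1. Over the 14 libraries eif4ebp1, encoding a 4E-BP that blocks the cap-binding factor eIF4E, averaged 113 CPM per kb. Its paralog eif4ebp2 averaged 46.1 CPM per kb, lamtor2 of Ragulator 31.1 CPM per kb, akt2 24.8 CPM per kb and the inhibitor gene ddit4 21.9 CPM per kb. The level of ddit4 was uneven, at 23.1, 13.6 and 34 CPM per kb in lines TMEM43-WT, TMEM43-P111L and TMEM43-S358L and 12.2 CPM per kb in NTG. At the other end igf1rb, a receptor for IGF1, averaged 0.168 CPM per kb. Duplicated genes were mostly unequal in level. In NTG, insra made 96.0 ± 3.17%, akt2 98.3 ± 0.101% and pdpk1b 96.8 ± 1.08% of the summed CPM per kb of the insulin receptor, Akt and PDK1 genes of the set (SD, n = 3), whereas igf1ra and igf1rb were both at or below 1.65 CPM in every library. The kinase mtor itself averaged 2.61 CPM per kb.

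**Figure D1:**
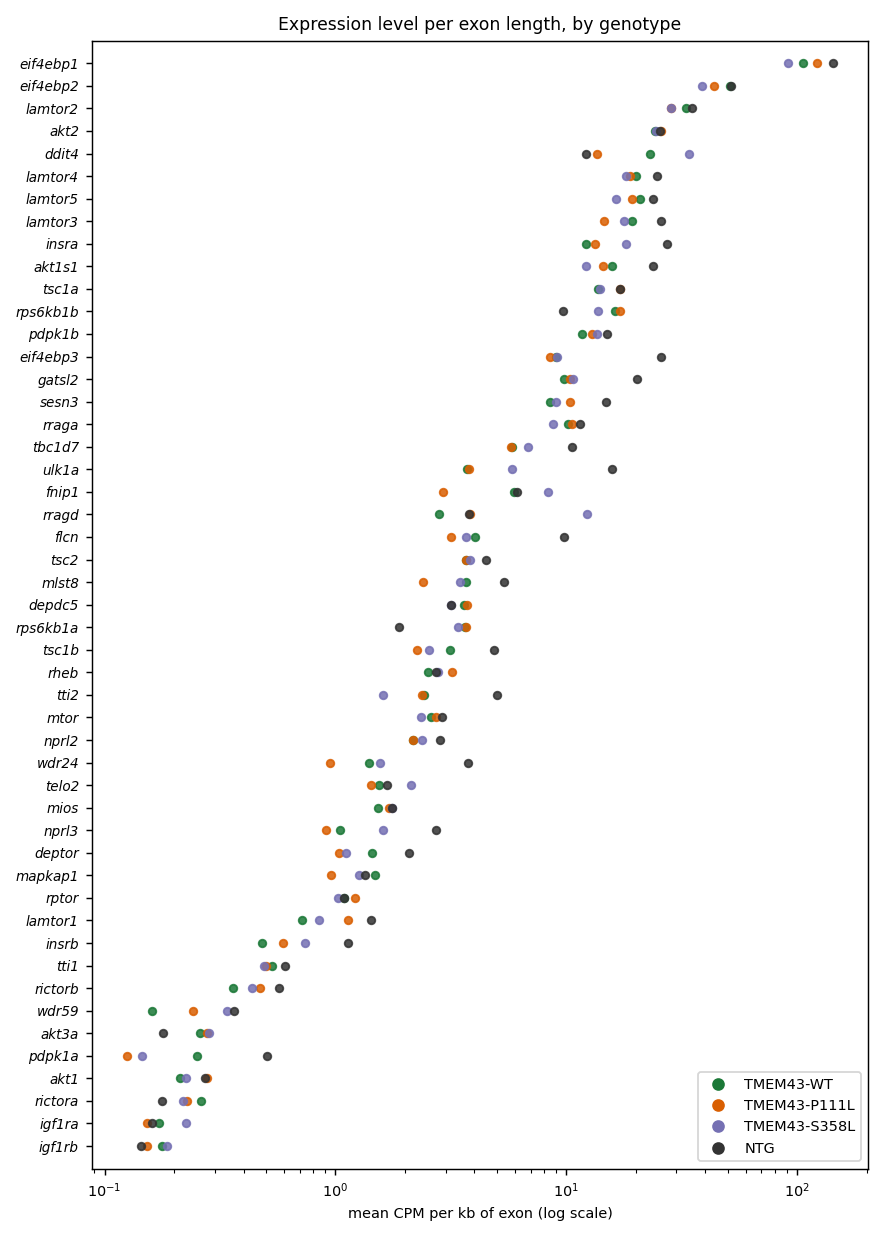
Mean CPM per kb of exon (log axis) of the 49 genes, ordered by their mean over all 14 libraries, with a point for TMEM43-WT (n = 4), TMEM43-P111L (n = 3), TMEM43-S358L (n = 4) and NTG (n = 3). Levels ran from 113 CPM per kb for eif4ebp1 to 0.168 CPM per kb for igf1rb; the TMEM43-S358L point of rragd lies to the right of its other points, and the NTG point of ulk1a, eif4ebp3, flcn, wdr24, gatsl2 and tti2 lay to the right of the points of all 3 lines.

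Against NTG, more genes of the set were called lower than higher in each line. In TMEM43-WT 11 of 49 were called (22.4%, against a background of 8.34% of all tested genes), 2 higher and 9 lower. In TMEM43-P111L 13 of 49 were called (26.5%, background 7.59%), 2 higher and 11 lower, and in TMEM43-S358L 10 of 49 (20.4%, background 6.15%), 1 higher and 9 lower. For calls of lower genes alone the background was 4.24%, 4.25% and 3.48% for TMEM43-WT, TMEM43-P111L and TMEM43-S358L, and for higher genes 4.09%, 3.34% and 2.68%. The median log2 fold change of the 49 genes was -0.34, -0.30 and -0.30, against -0.01, 0 and 0 over all tested genes, and it was negative for 40, 37 and 38 of them. The libraries of the line and of NTG did not overlap for 20, 22 and 19 of the 49 genes, and for 21.7%, 27.1% and 19.2% of all tested genes. At an unadjusted p under 0.05 there were 19, 19 and 21 of 49 (background 24.7%, 23.6% and 22.6%). Those not called among them were mlst8, akt1s1, eif4ebp1, tsc1b, lamtor1, wdr59, insrb and pdpk1b in TMEM43-WT, and akt1s1, deptor, lamtor3, lamtor4, fnip1 and pdpk1a in TMEM43-P111L. In TMEM43-S358L they were mlst8, deptor, rps6kb1a, rps6kb1b, tbc1d7, lamtor3, lamtor4, lamtor5, nprl3, insra and pdpk1a, and the adjusted p of all these genes in the line named was 0.0529 to 0.193. DESeq2 called more of all tested genes than edgeR, with 2392, 2147 and 1950 against 1454, 1324 and 1073 in the same order of lines. Of the 49 genes DESeq2 called 12, 16 and 15, with all calls of edgeR among them. Those it added were mlst8 in TMEM43-WT, akt1s1, lamtor3 and pdpk1a in TMEM43-P111L, and mlst8, rps6kb1a, tbc1d7, lamtor5 and pdpk1a in TMEM43-S358L. The 3 comparisons share the same 3 NTG libraries, and the study had itself looked at mTOR signalling in these libraries. The gene list was also chosen with earlier results of these data known. For these reasons the counts, set against the background, are not independent evidence of an excess or of a direction. The study reported mTOR signalling as enriched among genes changed in both TMEM43-WT and TMEM43-P111L. It described the genes of this pathway, together with tRNA and ribosome pathways, as mainly higher in these lines. Most calls of the present set were lower there, and its overlap with the pathway list of the study was not tested. Of the 49 genes, 6 were called in 3 lines, 6 in 2 lines, 4 in 1 line and 33 in none. The same counts over all tested genes are not given here, so whether this recurrence is unusual was not tested.

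These counts depended on single libraries. The count for TMEM43-WT was 7 without NTG replicate 2 and 5 without NTG replicate 3. For TMEM43-P111L it was 8 without NTG replicate 3, and 8, 7 and 8 without TMEM43-P111L replicates 2, 3 and 4. For TMEM43-S358L it was 5 without NTG replicate 2 and 6 without NTG replicate 3. Calls over all tested genes were fewer in these fits too. They numbered 738 and 707 for TMEM43-WT (1454 with all libraries), 649, 730, 690 and 532 for TMEM43-P111L (1324 with all libraries), and 640 and 484 for TMEM43-S358L (1073 with all libraries), in the order of the libraries just named. Without the pair of libraries with the lowest TMM factors, TMEM43-WT replicate 1 and TMEM43-S358L replicate 3, a choice made after seeing the data, the counts stayed within 1.5 times of those above.

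**Figure D2:**
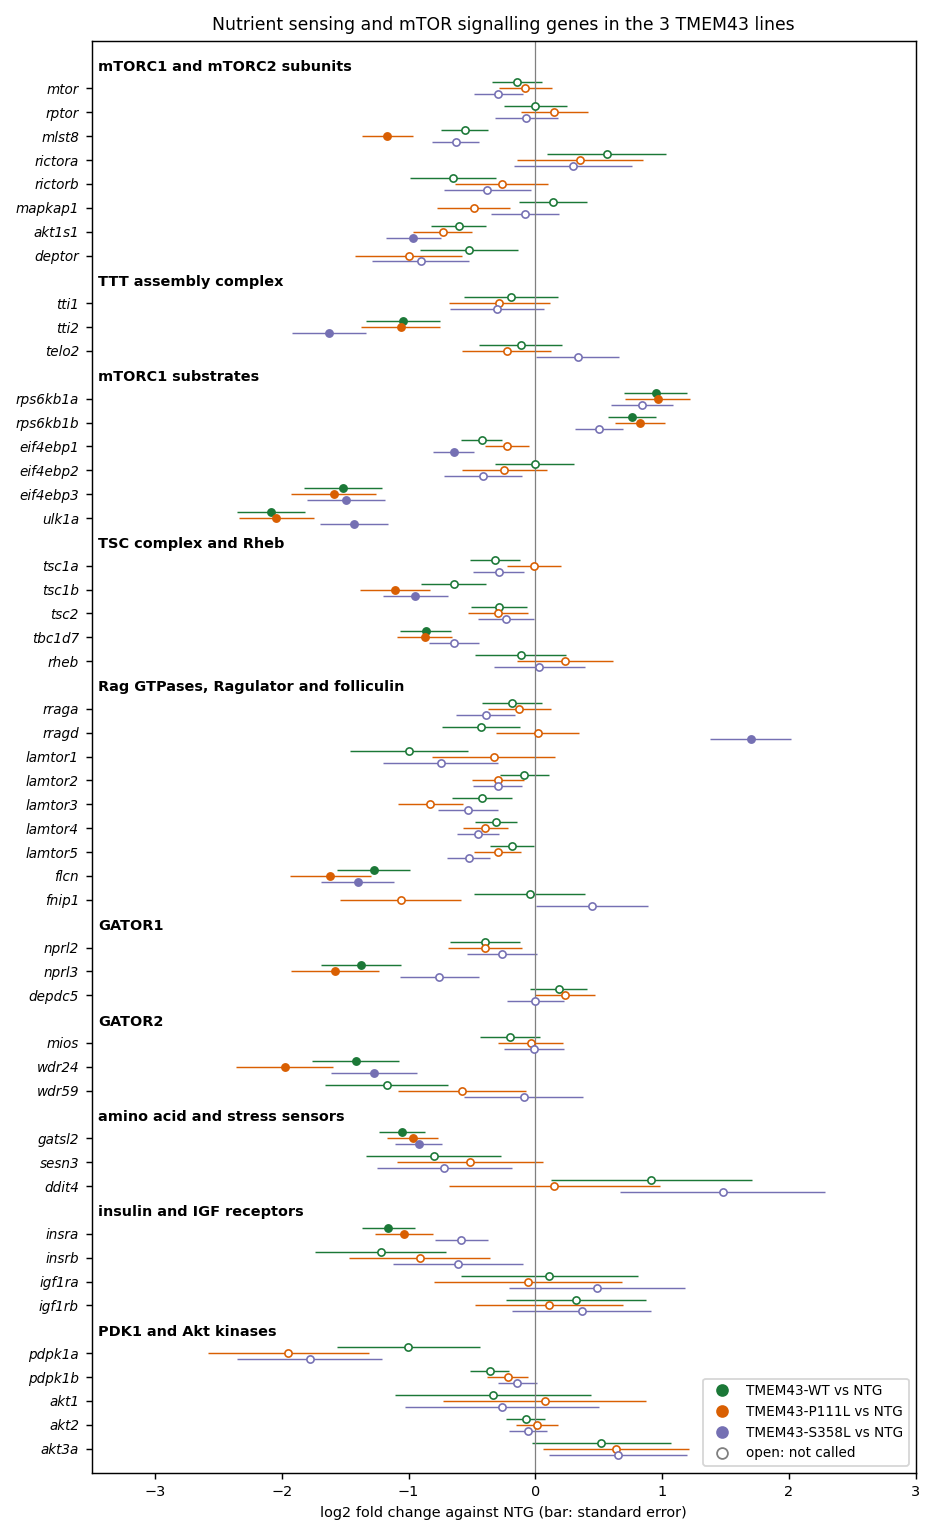
Log2 fold change against NTG (x axis; bars, standard error of the edgeR fit) of the 49 genes, grouped by role, in lines TMEM43-WT, TMEM43-P111L and TMEM43-S358L; filled points were called and open points were not. Most points lie left of 0, with negative values for 40, 37 and 38 of 49 genes, and the points for rps6kb1a and rps6kb1b lie to the right in all 3 lines.

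Of the 6 genes grouped here as mTORC1 substrates (those of S6 kinase and 4E-BP, and ulk1a), TMEM43-WT had 4 called, 2 higher and 2 lower (background 8.34% of all tested genes). TMEM43-P111L also had 4, again 2 higher and 2 lower (background 7.59%), while TMEM43-S358L had 3, all lower (background 6.15%). The kinase gene ulk1a, whose product starts autophagy and is held inactive by mTORC1, had the lowest fold changes of the set in TMEM43-WT and TMEM43-P111L. It lies on chromosome 8 of GRCz11 from 43736072 to 43775805. The libraries had 11.7, 13.4, 12.2 and 13.0 CPM in TMEM43-WT, 12.5, 9.4 and 16.9 CPM in TMEM43-P111L, 19.9, 26.8, 20.4 and 12.2 CPM in TMEM43-S358L, and 74.7, 45.7 and 39.9 CPM in NTG. All transgenic libraries were below all NTG libraries, and NTG replicate 2 was the highest of all. The log2 fold change of ulk1a was -2.08 ± 0.27 (SE) in TMEM43-WT ventricles (adjusted p = 0.000611), -2.04 ± 0.297 in TMEM43-P111L (adjusted p = 0.00172), and -1.43 ± 0.266 in TMEM43-S358L (adjusted p = 0.00636). These 3 calls were kept when any single library was left out, with a highest adjusted p of 0.0384.

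Of the genes for 4E-BP, eif4ebp3 (chromosome 21, 26401332 to 26406245) fell in all lines. It had 11.4, 7.65, 5.71 and 6.46 CPM in TMEM43-WT, 5.87, 7.58 and 8.78 CPM in TMEM43-P111L, 5.27, 10.5, 5.78 and 10.1 CPM in TMEM43-S358L, and 29.3, 22.2 and 15.5 CPM in NTG. No transgenic library reached the lowest NTG library, replicate 4 at 21 months. The log2 fold changes were -1.52 ± 0.308 in TMEM43-WT ventricles, -1.59 ± 0.337 in TMEM43-P111L, and -1.50 ± 0.307 in TMEM43-S358L (SE, adjusted p = 0.00848, 0.0121 and 0.0109), and the call in TMEM43-S358L was lost without NTG replicate 2 (adjusted p = 0.0513). As a share of the CPM per kb of the 3 genes for 4E-BP, eif4ebp3 made 5.41 ± 1.78% in TMEM43-WT, 5.13 ± 1.83% in TMEM43-P111L, 6.57 ± 2.36% in TMEM43-S358L and 11.5 ± 1.97% in NTG (SD, n = 4, 3, 4 and 3). The more abundant eif4ebp1 had 115, 103, 131 and 118 CPM in TMEM43-S358L and 205, 174 and 168 CPM in NTG. These groups did not overlap, and eif4ebp1 was called in TMEM43-S358L (log2 fold change -0.64 ± 0.162, adjusted p = 0.0297), a call lost without NTG replicates 2 or 3 or TMEM43-S358L replicates 1, 2 or 4 (adjusted p up to 0.112). The values for eif4ebp1 were -0.42 ± 0.162 in TMEM43-WT (adjusted p = 0.114) and -0.22 ± 0.175 in TMEM43-P111L (adjusted p = 0.474), and eif4ebp2 was not called in any line.

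The genes for S6 kinase, which phosphorylates ribosomal protein S6 downstream of mTORC1, were the 2 called higher in TMEM43-WT and TMEM43-P111L. rps6kb1a (chromosome 10, 28170647 to 28194985) had 12, 13.9, 14.0 and 14.0 CPM in TMEM43-WT, 16.6, 12.2 and 12.1 CPM in TMEM43-P111L, 8.24, 12.1, 17.5 and 12.2 CPM in TMEM43-S358L, and 8.29, 5.49 and 7.16 CPM in NTG. TMEM43-WT and TMEM43-P111L lay wholly above NTG, and TMEM43-S358L overlapped it through replicate 1. Its paralog rps6kb1b (chromosome 15, 17407002 to 17424270) had 27.7, 30.1, 36.2 and 30.4 CPM in TMEM43-WT, 32.5, 32.5 and 32.4 CPM in TMEM43-P111L, 26.0, 23.0, 24.8 and 30.1 CPM in TMEM43-S358L, and 16.1, 14.7 and 24.2 CPM in NTG. Here too only TMEM43-S358L overlapped NTG, whose highest library was the one of 21 months. For rps6kb1a the log2 fold change was 0.95 ± 0.248 in TMEM43-WT ventricles, 0.96 ± 0.26 in TMEM43-P111L, and 0.84 ± 0.247 in TMEM43-S358L (SE, adjusted p = 0.0277, 0.0348 and 0.0534). For rps6kb1b it was 0.76 ± 0.19, 0.83 ± 0.201 and 0.50 ± 0.189 in the same lines (SE, adjusted p = 0.0226, 0.0215 and 0.124). The S6 kinase calls were sensitive to single libraries. For rps6kb1a they were lost without NTG replicates 3 or 4, in TMEM43-WT also without replicates 4, 5 or 6 of the line, and in TMEM43-P111L when any 1 library of the line was left out (adjusted p up to 0.131). For rps6kb1b they were lost without NTG replicates 2 or 3, in TMEM43-WT also without replicate 5 of the line, and in TMEM43-P111L when any 1 library of the line was left out (adjusted p up to 0.102). Summed over both genes, S6 kinase stood at 20.0 ± 2.08 CPM per kb in TMEM43-WT, 20.7 ± 0.711 in TMEM43-P111L, 17.0 ± 1.73 in TMEM43-S358L and 11.5 ± 2.81 in NTG (SD), with rps6kb1b making 80.2% to 83.2% of it in each group.

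**Figure D3:**
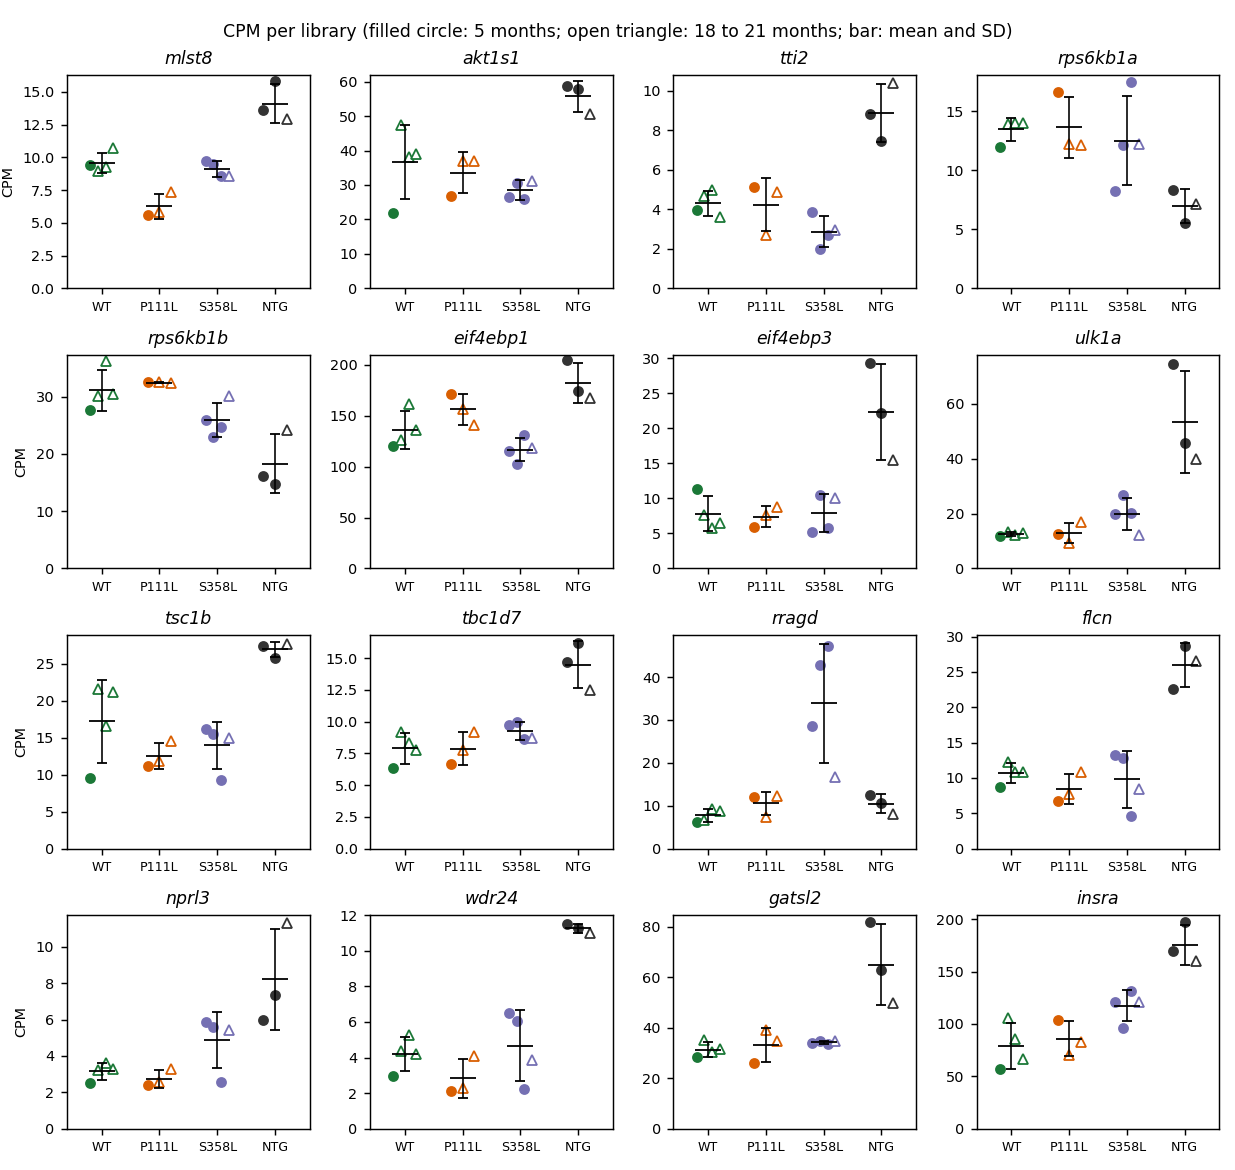
CPM of each library (y axis, from 0) for the 16 genes called in at least 1 line against NTG, in TMEM43-WT, TMEM43-P111L, TMEM43-S358L and NTG (filled circles, 5 months; open triangles, 18 to 21 months; bars, mean and SD). The NTG libraries of ulk1a, at 39.9 to 74.7 CPM, lie above all others, and the TMEM43-S358L libraries of rragd, at 16.8 to 47.3 CPM, lie above those of the other groups.

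Of the 8 subunit genes of the mTOR complexes, edgeR called 1 in TMEM43-P111L (background 7.59% of all tested genes) and 1 in TMEM43-S358L (background 6.15%). In TMEM43-WT it called 0 (background 8.34%), where 2 had an unadjusted p below 0.05 (background 24.7%) and DESeq2 called mlst8. For mtor the libraries had 20.4, 24.3, 19.7 and 23.6 CPM in TMEM43-WT, 25.9, 17.5 and 25.6 CPM in TMEM43-P111L, 18.2, 22.4, 18.7 and 20.1 CPM in TMEM43-S358L, and 30.7, 20.9 and 21.3 CPM in NTG. The groups overlapped, with log2 fold changes of -0.14 ± 0.195, -0.08 ± 0.208 and -0.29 ± 0.194 (SE, adjusted p = 0.701, 0.861 and 0.402 in lines TMEM43-WT, TMEM43-P111L and TMEM43-S358L). rptor, encoding the mTORC1 scaffold raptor, had log2 fold changes of 0, 0.15 and -0.07 in the same lines, and neither the mTORC2 genes rictora, rictorb and mapkap1 nor the inhibitor gene deptor was called. mlst8 (chromosome 12, 18543792 to 18553114), encoding a subunit of both complexes, had 9.38, 8.97, 9.25 and 10.7 CPM in TMEM43-WT, 5.6, 5.81 and 7.36 CPM in TMEM43-P111L, 9.72, 9.49, 8.56 and 8.57 CPM in TMEM43-S358L, and 13.6, 15.8 and 12.9 CPM in NTG. All lines lay below NTG and TMEM43-P111L lay below the other lines, with log2 fold changes of -1.17 ± 0.202 in TMEM43-P111L (SE, adjusted p = 0.00436, called), -0.56 ± 0.185 in TMEM43-WT (adjusted p = 0.0714) and -0.63 ± 0.184 in TMEM43-S358L (adjusted p = 0.0529). The direct difference between TMEM43-P111L and TMEM43-WT was -0.61 ± 0.19 and was not called (adjusted p = 0.184). akt1s1, encoding the mTORC1 inhibitor PRAS40, had 21.9, 47.3, 38.2 and 39.1 CPM in TMEM43-WT, 26.8, 37 and 36.9 CPM in TMEM43-P111L, 26.5, 30.7, 25.8 and 31.2 CPM in TMEM43-S358L, and 58.7, 57.8 and 50.6 CPM in NTG. No line overlapped NTG. In edgeR akt1s1 was called in TMEM43-S358L only (log2 fold change -0.96 ± 0.216, adjusted p = 0.0165), a call lost without NTG replicates 2 or 3 or TMEM43-S358L replicate 3 (adjusted p up to 0.0538). DESeq2 called it in TMEM43-P111L too.

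Of the TTT complex, which helps newly made mTOR and related kinases to fold and assemble, tti2 fell and tti1 and telo2 were not called. tti2 (chromosome 8, 45381322 to 45395244) had 3.98, 4.65, 4.97 and 3.61 CPM in TMEM43-WT, 5.12, 2.71 and 4.88 CPM in TMEM43-P111L, 3.87, 1.97, 2.69 and 2.96 CPM in TMEM43-S358L, and 8.8, 7.45 and 10.4 CPM in NTG. No line overlapped NTG. Its log2 fold change was -1.04 ± 0.29 in TMEM43-WT ventricles, -1.06 ± 0.314 in TMEM43-P111L, and -1.63 ± 0.292 in TMEM43-S358L (SE, adjusted p = 0.036, 0.0491 and 0.00535). The call in TMEM43-S358L was kept without any single library. In TMEM43-WT it was lost when any 1 of the 7 libraries compared was left out (adjusted p up to 0.0999), and in TMEM43-P111L it was lost in 12 of 14 fits with a library left out, all but those without TMEM43-S358L replicates 1 or 2 (adjusted p up to 0.161). On the opposite strand tti2 overlaps mak16, whose level was 17.1, 15.5 and 12.9 CPM in lines TMEM43-WT, TMEM43-P111L and TMEM43-S358L and 11.4 CPM in NTG. Whether reads were counted by strand is not given in the sources used here.

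Of the TSC complex, which restrains mTORC1 by acting on Rheb, tbc1d7 was called lower in TMEM43-WT and TMEM43-P111L, and tsc1b in TMEM43-P111L and TMEM43-S358L. tbc1d7 (chromosome 20, 52825214 to 52846239) had 6.31, 9.2, 8.33 and 7.8 CPM in TMEM43-WT, 6.63, 7.77 and 9.21 CPM in TMEM43-P111L, 9.72, 9.98, 8.61 and 8.69 CPM in TMEM43-S358L, and 14.7, 16.2 and 12.5 CPM in NTG. All lines lay below NTG, and the log2 fold change was -0.87 ± 0.2 in TMEM43-WT ventricles, -0.87 ± 0.216 in TMEM43-P111L, and -0.64 ± 0.199 in TMEM43-S358L (SE, adjusted p = 0.0156, 0.0234 and 0.0657). Both calls were lost without NTG replicates 2 or 3, and that in TMEM43-P111L also without replicates 2 or 3 of the line (adjusted p up to 0.0832). tsc1b (chromosome 21, 17301790 to 17339832), the less abundant of the genes for hamartin, had 9.55, 21.5, 16.5 and 21.2 CPM in TMEM43-WT, 11.1, 11.9 and 14.5 CPM in TMEM43-P111L, 16.1, 15.5, 9.24 and 14.9 CPM in TMEM43-S358L, and 27.4, 25.7 and 27.6 CPM in NTG. No line overlapped NTG, and replicates 1 of TMEM43-WT and 3 of TMEM43-S358L, which have the lowest TMM factors, were the lowest libraries. Its log2 fold change was -1.11 ± 0.278 in TMEM43-P111L (SE, adjusted p = 0.0249) and -0.95 ± 0.256 in TMEM43-S358L (adjusted p = 0.0388), both called, and -0.64 ± 0.255 in TMEM43-WT (adjusted p = 0.126). The calls were lost without NTG replicates 2 or 3, in TMEM43-P111L also when any 1 library of the line was left out, and in TMEM43-S358L also without NTG replicate 4, TMEM43-WT replicate 5 or replicates 2, 3 or 4 of the line (adjusted p up to 0.105). The more abundant tsc1a, tsc2 and rheb were not called in any line.

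Among the Rag GTPases, which respond to amino acids, rragd was called higher in TMEM43-S358L. It lies on chromosome 17 from 15788074 to 15820301. The libraries had 28.5, 42.8, 47.3 and 16.8 CPM in TMEM43-S358L, 6.31, 6.57, 9.25 and 8.81 CPM in TMEM43-WT, 12, 7.43 and 12.2 CPM in TMEM43-P111L, and 12.6, 10.6 and 8.12 CPM in NTG. All TMEM43-S358L libraries lay above the 10 others, and the lowest of them was the only one of 19 months. The log2 fold change of TMEM43-S358L was 1.70 ± 0.32 against NTG (SE, adjusted p = 0.00695) and 2.13 ± 0.294 against TMEM43-WT (adjusted p = 0.00148), and that of TMEM43-P111L against TMEM43-S358L was -1.68 ± 0.32 (adjusted p = 0.016). The difference between TMEM43-P111L and TMEM43-S358L was not called without TMEM43-P111L replicates 3 or 4, TMEM43-S358L replicate 2 (adjusted p up to 0.0976), or the pair of libraries with the lowest TMM factors, whereas the other 2 calls were kept without any single library. In fits within an age group rragd was 1.77 ± 0.295 higher in TMEM43-S358L than in NTG on the log2 scale at 5 months and 1.05 ± 0.424 higher at 18 to 21 months (SE, adjusted p = 0.0505 and 0.288, not called). Its partner gene rraga was not called in any comparison. As a share of the CPM per kb of both genes, rragd made 56.6 ± 9.05% in TMEM43-S358L, 22.9 ± 8.1% in TMEM43-WT, 26.5 ± 6.14% in TMEM43-P111L, against 25.2 ± 6.84% in NTG (SD).

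Folliculin acts on RagC and RagD together with an FNIP partner. flcn (chromosome 16, 13818505 to 13846002) had 8.76, 12.3, 10.9 and 10.9 CPM in TMEM43-WT, 6.75, 7.67 and 10.9 CPM in TMEM43-P111L, 13.3, 12.8, 4.66 and 8.45 CPM in TMEM43-S358L, and 22.6, 28.7 and 26.5 CPM in NTG. No transgenic library reached the NTG range. The log2 fold change of flcn was -1.28 ± 0.291 in TMEM43-WT ventricles, -1.62 ± 0.32 in TMEM43-P111L, and -1.40 ± 0.291 in TMEM43-S358L (SE, adjusted p = 0.0144, 0.00897 and 0.0112), and leaving out NTG replicate 3 ended the call in TMEM43-WT (adjusted p = 0.0519). The partner fnip1 was scattered, with 17.7 to 22.4 CPM in TMEM43-P111L, 25.2 to 74.1 CPM in TMEM43-WT, 26.6 to 90.8 CPM in TMEM43-S358L and 24.2 to 64.9 CPM in NTG, and was not called. The 5 Ragulator genes lamtor1 to lamtor5 were not called in any line in edgeR, with log2 fold changes between -1.0 and -0.09, and DESeq2 called lamtor3 in TMEM43-P111L and lamtor5 in TMEM43-S358L. Of these, lamtor3 had an adjusted p of 0.0605 in TMEM43-P111L in edgeR, and lamtor4 and lamtor5 lay below NTG in every library of all 3 lines.

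Of GATOR1, which switches off the Rag GTPases when amino acids are scarce, nprl3 was called lower and nprl2 and depdc5 were not called. nprl3 (chromosome 3, 55045343 to 55079749) had 2.5, 3.24, 3.59 and 3.31 CPM in TMEM43-WT, 2.38, 2.56 and 3.29 CPM in TMEM43-P111L, 5.85, 5.58, 2.56 and 5.45 CPM in TMEM43-S358L, and 5.96, 7.36 and 11.3 CPM in NTG. The lines did not overlap NTG, but 3 TMEM43-S358L libraries came close to its lowest library. On the log2 scale the fold change was -1.38 ± 0.317 in TMEM43-WT ventricles, -1.58 ± 0.347 in TMEM43-P111L, and -0.76 ± 0.313 in TMEM43-S358L (SE, adjusted p = 0.0152, 0.0137 and 0.16), and leaving out NTG replicate 4 ended the call in TMEM43-WT (adjusted p = 0.065). Of GATOR2, which opposes GATOR1, wdr24 (chromosome 24, 37640619 to 37660664) was called lower in all lines. It had 2.96, 4.37, 5.29 and 4.2 CPM in TMEM43-WT, 2.1, 2.31 and 4.1 CPM in TMEM43-P111L, 6.51, 6.03, 2.24 and 3.86 CPM in TMEM43-S358L, and 11.5, 11.3 and 11.0 CPM in NTG. The NTG libraries were close together and above every transgenic library. The log2 fold change of wdr24 was -1.42 ± 0.342 in TMEM43-WT ventricles, -1.98 ± 0.381 in TMEM43-P111L, and -1.27 ± 0.34 in TMEM43-S358L (SE, adjusted p = 0.0194, 0.00774 and 0.0381). The call was lost in TMEM43-WT without NTG replicates 2 or 3 (adjusted p up to 0.0555). In TMEM43-S358L it was lost when any 1 NTG library was left out, without TMEM43-S358L replicates 3 or 4 (adjusted p up to 0.094), or without the pair of libraries with the lowest TMM factors. wdr24 overlaps zgc:112496 on the opposite strand, at 1.7, 1.31 and 2.05 CPM in lines TMEM43-WT, TMEM43-P111L and TMEM43-S358L and 3.23 CPM in NTG. The other GATOR2 genes of the set, mios and wdr59, were not called.

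The sensor gene gatsl2, named castor2 in a newer RefSeq annotation and related to the arginine sensor of mammals, was called lower in all lines. It lies on chromosome 5 from 61361815 to 61403813. The libraries had 28.4, 35.1, 30.2 and 31.5 CPM in TMEM43-WT, 26.0, 39.0 and 34.6 CPM in TMEM43-P111L, 33.9, 34.8, 33.6 and 34.7 CPM in TMEM43-S358L, and 81.8, 62.9 and 49.9 CPM in NTG. Every transgenic library was below the lowest NTG library, again the one of 21 months. Its log2 fold change was -1.05 ± 0.184 in TMEM43-WT ventricles, -0.97 ± 0.2 in TMEM43-P111L, and -0.92 ± 0.184 in TMEM43-S358L (SE, adjusted p = 0.00384, 0.0103 and 0.00984), and these calls were kept without any single library. The stress-responsive inhibitors of mTORC1, sesn3 and ddit4, were not called. ddit4 was the most scattered gene of the set in TMEM43-S358L, where replicate 1 had 2.97 CPM and the others 50.6 to 72.3 CPM.

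Of the receptors, the insulin receptor gene insra fell and the others were not called. insra (chromosome 2, 37544951 to 37633113) had 57.2, 106, 85.7 and 66.6 CPM in TMEM43-WT, 104, 70.7 and 83.0 CPM in TMEM43-P111L, 121, 96.5, 131 and 121 CPM in TMEM43-S358L, and 170, 197 and 160 CPM in NTG. NTG lay above all lines, and TMEM43-S358L lay mostly above TMEM43-WT. On the log2 scale the fold change was -1.16 ± 0.21 in TMEM43-WT ventricles, -1.04 ± 0.228 in TMEM43-P111L, and -0.58 ± 0.21 in TMEM43-S358L (SE, adjusted p = 0.00462, 0.0138 and 0.107). The direct difference between TMEM43-S358L and TMEM43-WT was 0.57 ± 0.196 and was not called (adjusted p = 0.19), and the call in TMEM43-P111L was lost without replicates 3 or 4 of the line (adjusted p up to 0.0587). The genes of the set for the kinases downstream, PDK1 and Akt, were not called in edgeR, and DESeq2 called pdpk1a in TMEM43-P111L and TMEM43-S358L. Of these, pdpk1a averaged 0.601, 0.299 and 0.347 CPM in lines TMEM43-WT, TMEM43-P111L and TMEM43-S358L and 1.21 CPM in NTG, with log2 fold changes of -1.0, -1.95 and -1.78 (adjusted p = 0.287, 0.0704 and 0.0747). Their main gene akt2 had 71.1 to 93.4 CPM in the transgenic lines and 78.6 to 93.2 CPM in NTG, with log2 fold changes of -0.08 ± 0.152, 0.01 ± 0.163 and -0.06 ± 0.152 in lines TMEM43-WT, TMEM43-P111L and TMEM43-S358L (SE).

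Between the lines, rragd was the only gene of the set called in edgeR. DESeq2 also called mlst8 in TMEM43-P111L against TMEM43-WT (448 of all tested genes called) and fnip1 in TMEM43-P111L against TMEM43-S358L (439 of all tested genes called). In TMEM43-P111L against TMEM43-WT 0 of 49 were called (background 0.826%), with 3 genes at an unadjusted p under 0.05 in edgeR (mlst8, mapkap1 and fnip1, background 10.2%). In TMEM43-S358L against TMEM43-WT 1 of 49 was called (background 1.62%) and in TMEM43-P111L against TMEM43-S358L 1 of 49 (background 1.04%). At an unadjusted p under 0.05 there were 5 and 6 genes in these comparisons (background 12.4% and 9.57%), among them ulk1a, insra, lamtor5 and wdr59 for TMEM43-S358L against TMEM43-WT, and mlst8, eif4ebp1, ulk1a, fnip1 and nprl3 for TMEM43-P111L against TMEM43-S358L. The groups did not overlap for 2, 3 and 5 genes in the order of these comparisons (background 10.8%, 8.8% and 9.79%). A gene called in 1 line and not in another was therefore not shown to differ between lines, with rragd as the exception for TMEM43-S358L. The study reported less transgene mRNA in TMEM43-P111L and TMEM43-S358L than in TMEM43-WT. Whether rragd follows the amino acid exchange, the transgene level or the site of insertion was not tested.

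No gene of the set was called with age. In libraries of 18 to 21 months against libraries of 5 months, with genotype as a covariate, edgeR called 0 of 49 (background 0.969%). At an unadjusted p under 0.05 there were 5 (eif4ebp2, sesn3, depdc5, rps6kb1b and akt1s1, background 13.5%), and 0 did not overlap between ages (background 0.74%). DESeq2 called eif4ebp2 and sesn3, beside 581 of all tested genes. The translation repressor eif4ebp2 had 76.1 to 139 CPM (median 98.2) at 18 to 21 months and 98.3 to 208 CPM (median 147) at 5 months (n = 7 each). The sestrin gene sesn3 had 22.2 to 32.1 CPM (median 23.4) at 18 to 21 months and 26.2 CPM or more (median 44.6) at 5 months, with NTG replicate 3 as the highest. Both ranges overlapped, and the log2 differences in edgeR were -0.69 ± 0.167 for eif4ebp2 and -1.06 ± 0.288 for sesn3 (SE, adjusted p = 0.065 and 0.111). For the interaction of line and age 0 of 49 were called for TMEM43-WT, TMEM43-P111L and TMEM43-S358L (background 0%, 0.00573% and 0%), with 4, 1 and 1 genes at an unadjusted p under 0.05 in edgeR (background 10.3%, 5.75% and 4.72%) and 0 calls in DESeq2. These were rptor, akt1s1, rraga and wdr59 for TMEM43-WT, gatsl2 for TMEM43-P111L and fnip1 for TMEM43-S358L. Some of these groups hold a single library. Without NTG replicate 2, 1 gene of the set was called with age, beside 323 of all 17437 tested genes (169 with all libraries).

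Within each age group alone the fold changes against NTG of the called genes had the sign of the pooled fit in 11 of 11, 13 of 13 and 10 of 10 calls in lines TMEM43-WT, TMEM43-P111L and TMEM43-S358L. The genes were chosen on the pooled libraries, so this is a description. With 5-month libraries only, 0 genes of the set were called in any line, where 8, 3 and 90 of all 17437 genes were called in lines TMEM43-WT, TMEM43-P111L and TMEM43-S358L. With 18 to 21-month libraries only, which hold 1 NTG library, 3 were called in TMEM43-P111L (305 of all genes), 4 in TMEM43-WT (377 of all genes) and 0 in TMEM43-S358L (61 of all genes).

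**Figure D4:**
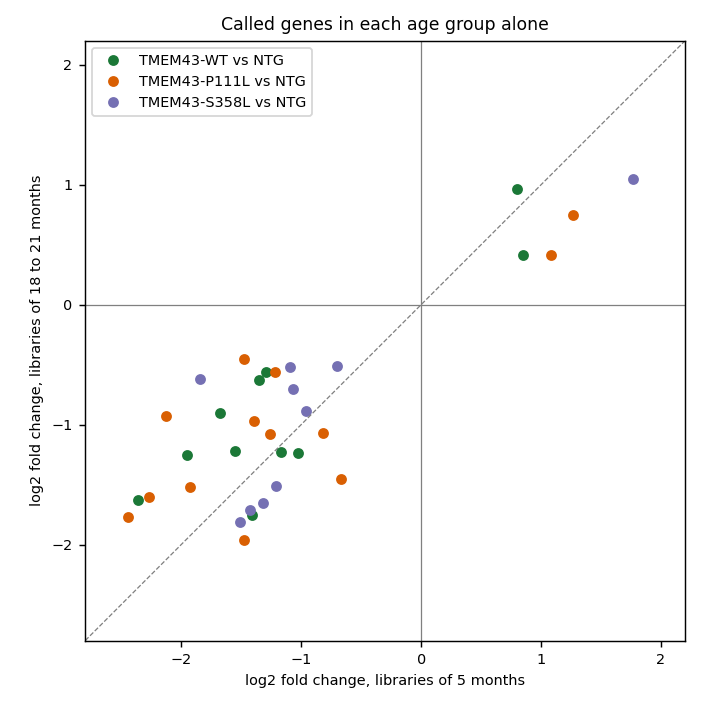
Log2 fold change against NTG of the genes called in the pooled fit, in libraries of 5 months alone (x axis) and of 18 to 21 months alone (y axis), for TMEM43-WT (11 calls), TMEM43-P111L (13) and TMEM43-S358L (10); the dashed line marks equal values. All points lie in the lower left or upper right quadrant, with ulk1a in TMEM43-WT at -2.36 and -1.63.

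Around the set, 85 further genes of nutrient sensing and of mTOR effectors were listed, of which 75 were in the table and tested. In TMEM43-WT 7 of 75 were called (9.33%, 5 higher and 2 lower), in TMEM43-P111L 10 (13.3%, 5 higher and 5 lower) and in TMEM43-S358L 7 (9.33%, 3 higher and 4 lower), against the background of 8.34%, 7.59% and 6.15% of all tested genes. Of the 75 genes, 3 were called higher in all 3 lines. The lines share the same NTG libraries and the count over all tested genes is not given here. Whether this recurrence is unusual was therefore not tested. The translation scaffold gene eif4g1a averaged 134 ± 8.31, 128 ± 27.9 and 116 ± 16.3 CPM in lines TMEM43-WT, TMEM43-P111L and TMEM43-S358L and 56.3 ± 17.9 CPM in NTG (SD), with log2 fold changes of 1.25, 1.18 and 1.04. larp1, which binds mRNAs of the translation machinery (log2 fold change 1.41, 1.49 and 1.13), and the cap-binding gene eif4e1c (1.54, 1.27 and 1.37) were also called in all 3 lines. These calls were kept without any single library, except that those of larp1 in TMEM43-S358L and eif4e1c in TMEM43-P111L were lost without NTG replicates 2 or 3 and that of eif4g1a in TMEM43-S358L without NTG replicate 3 (adjusted p up to 0.074). Another cap-binding gene, eif4ea, was called higher in TMEM43-WT (0.71) and lost without NTG replicates 2 or 3 or TMEM43-WT replicates 4 or 5 (adjusted p up to 0.114). Further listed genes of the eIF4E family were not called in edgeR, with log2 fold changes of -0.54, -0.67 and -0.70 for eif4e3, -0.54, -0.44 and -0.34 for eif4e2 and 0.35, 0.32 and 0.45 for eif4eb in lines TMEM43-WT, TMEM43-P111L and TMEM43-S358L.

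Of the ULK complex that starts autophagy, atg101 was called lower in all 3 lines (-0.98, -0.83 and -0.79), atg13 in TMEM43-P111L and TMEM43-S358L (-0.74 and -0.70), and rb1cc1 in TMEM43-WT (-0.97). Leaving out NTG replicate 2 ended the call of atg101 in TMEM43-WT (adjusted p = 0.0555), and it was lost in TMEM43-P111L and TMEM43-S358L when any 1 NTG library was left out, and in 10 and 8 of the 14 fits in all (adjusted p up to 0.135). The calls of atg13 were lost without NTG replicates 2 or 3, when any 1 TMEM43-P111L library was left out, or without TMEM43-S358L replicates 1, 3 or 4 (adjusted p up to 0.14), and that of rb1cc1 without NTG replicate 2 or TMEM43-WT replicates 1 or 5 (adjusted p = 0.13 at most). In TMEM43-P111L the kinase genes sgk3 (-1.35) and eef2k (-1.94) were called lower, and in TMEM43-S358L the translation inhibitor gene pdcd4a (-1.26) and maf1 (-1.13), a repressor of RNA polymerase III. Each of these 4 calls was lost without some single libraries. NTG replicate 2 ended those of sgk3, eef2k and maf1, and NTG replicate 3 those of sgk3, pdcd4a and maf1, and NTG replicate 4 that of pdcd4a. Of the lines' own libraries, TMEM43-P111L replicate 3 ended both calls of that line, replicate 2 that of sgk3 and replicate 4 that of eef2k, while TMEM43-S358L replicates 3 and 4 ended both calls of that line, replicate 2 that of pdcd4a and replicate 1 that of maf1, which was also lost without TMEM43-WT replicate 5 (adjusted p up to 0.215). The Akt gene akt3b, not in the set, was called higher in TMEM43-P111L (1.57, adjusted p = 0.049), at a mean of 1.84 CPM against 0.619 CPM in NTG. This call was lost in 12 of the 14 fits with a library left out (adjusted p up to 0.133). In TMEM43-WT and TMEM43-S358L akt3b was not called (1.22 and 1.42, adjusted p = 0.0973 and 0.0667). The amino acid sensing list held 1 called gene, larsb, higher in TMEM43-WT and TMEM43-P111L (0.64 in both). Its calls were lost in 4 and 11 of the 14 fits (adjusted p up to 0.125). The gene smcr8b was called lower in TMEM43-P111L (-1.51), a call lost in 6 of these fits (adjusted p up to 0.141). Of these 75 genes 0 were called between lines or with age in edgeR. At an unadjusted p under 0.05 there were 5 in TMEM43-P111L against TMEM43-WT (background 10.2%) and 8 in TMEM43-S358L against TMEM43-WT (background 12.4%). There were 8 in TMEM43-P111L against TMEM43-S358L (background 9.57%) and 7 with age (background 13.5%).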

How the data were processed

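Per the labels and methods, the authors used Cutadapt 2.5 to trim single-end reads of 75 nt, STAR 2.7.2b for alignment to GRCz11 and featureCounts 1.6.4 for counting. The deposited table holds estimated counts, not scaled for depth or length, and part of the values are fractions of a read. How reads shared between genes were split, and whether strand was used, is not given in the sources used here. In 24 of the 49 genes described here some library held such fractions. Counts were rounded to whole numbers. Genes were filtered with filterByExpr by genotype, which left 99.9% to 99.95% of reads, scaled by TMM and tested in edgeR 4.0.16 by quasi-likelihood (R 4.3.3, limma 3.58.1) over all 14 libraries with genotype as the factor. Age (18 to 21 months against 5 months) was tested with genotype as a covariate, and line by age in a model of genotype and age groups. The procedure was tested on simulated data with 200 changed genes, but the outcome is not given here and no conclusion is drawn from it. P-values were adjusted by Benjamini-Hochberg over all 17437 genes tested. CPM per kb divides CPM by the exon length in the deposited table. Library depths of 20621770 to 32418475 reads set the counting precision, and the spread between pools sets the errors.

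Alternatives were DESeq2 1.42.0, other scaling and filters, a larger fold threshold, the groups compared alone, age as a covariate or held fixed, a replicate block and leaving out libraries. Every gene of the set called in some comparison was named, the others by counts or, at an unadjusted p under 0.05, by name. Of the further pathway genes up to 6 called per comparison with the smallest p were to be named. Called genes of lower rank (atg101 in TMEM43-P111L and TMEM43-S358L, larsb, smcr8b and akt3b) were added after their values were seen. Gene symbols, lists and tests were chosen with earlier results of these data known. Groups came from the sample labels.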

Additional observations from a re-analysis of the deposited data

Results flagged for a closer look

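In groups of 4 libraries, the gap between the outermost library and the next was set against the range of the group. Of 98 such groups (49 genes in TMEM43-WT and TMEM43-S358L), 9 exceeded Dixon's critical value at the 95% level, and chance exceeds it in about 1 in 20 groups. In TMEM43-S358L, telo2 of the TTT complex had 10.8 CPM in replicate 1 and 4.48 to 5.17 CPM in the others. The TSC gene tsc2 had 36.4 CPM in replicate 3 and 23.6 to 25.1 CPM in the others. The GATOR1 gene nprl3 had 2.56 CPM in replicate 3 and 5.45 to 5.85 CPM in the others. The receptor gene igf1ra had 0.165 CPM in replicate 1 and 1.38 to 1.6 CPM in the others.

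In TMEM43-WT, tti1 had 2.39 CPM in replicate 6 against 1.61 to 1.71 CPM, and mios had 6.5 CPM in replicate 6 against 4.98 to 5.12 CPM. The S6 kinase gene rps6kb1a had 12 CPM in replicate 1, the only one of 5 months, against 13.9 to 14.0 CPM. In the same library the sestrin gene sesn3 had 54.6 CPM against 23.2 to 25.6 CPM. The folliculin partner fnip1 had 74.1 CPM in replicate 4 against 25.2 to 31.9 CPM.

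Between lines, rragd differed by a log2 fold change of 2.13 in TMEM43-S358L against TMEM43-WT and of -1.68 in TMEM43-P111L against TMEM43-S358L, each tested directly.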

How the results depend on the processing

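With libraries of 5 months alone, 0 of the 49 genes were called against NTG in any line or between TMEM43-S358L and the other lines, where 8, 3 and 90 of all 17437 tested genes were called against NTG for TMEM43-WT, TMEM43-P111L and TMEM43-S358L. With libraries of 18 to 21 months alone, calls against NTG numbered 4 for TMEM43-WT, 3 for TMEM43-P111L and 0 for TMEM43-S358L, with 1 call between TMEM43-P111L and TMEM43-WT and 0 between TMEM43-S358L and the other lines, beside 377, 305 and 61 calls over all tested genes against NTG. These fits hold fewer libraries. With only the groups compared, 8 were called in TMEM43-P111L against NTG (546 of all tested genes) and 0 against TMEM43-S358L (143 of all tested genes). DESeq2 called 1 in TMEM43-P111L against TMEM43-WT, 2 in TMEM43-P111L against TMEM43-S358L and 2 with age, beside 448, 439 and 581 of all tested genes. Without a filter on low counts 1 was called with age (173 of all tested genes). Without the 2 libraries with the lowest TMM factors, 0 were called in TMEM43-P111L against TMEM43-S358L (98 of all tested genes). Over all tested genes DESeq2 called 2392 against 1454 in edgeR for TMEM43-WT against NTG, 2147 against 1324 for TMEM43-P111L and 1950 against 1073 for TMEM43-S358L.

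The replicate numbers did not pair libraries by the correlation of their deviations. With them as a replicate block, 0 genes were called in TMEM43-WT and 4 in TMEM43-S358L against NTG, and 0 in TMEM43-S358L against TMEM43-WT or TMEM43-P111L against TMEM43-S358L, beside 26, 432, 14 and 71 of all tested genes. Leaving out single libraries gave 5 to 11 calls for TMEM43-WT, 7 to 14 for TMEM43-P111L and 5 to 11 for TMEM43-S358L against NTG, beside 707 to 1545, 532 to 1399 and 484 to 1195 of all tested genes. For age, and for TMEM43-P111L against TMEM43-S358L, it gave 0 to 1, and it gave 1 in every fit for TMEM43-S358L against TMEM43-WT, and 0 in every fit for TMEM43-P111L against TMEM43-WT and the interactions. Of 36 gene calls 17 were kept without any single library, 19 were lost without at least 1, and 0 changed direction under the alternatives run. Of the 36, DESeq2 ended 0, RLE size factors 1, no filter on low counts 3, a minimum of 1 CPM in 3 libraries 1, fits of the groups compared alone 9, age as a covariate 1, the replicate block 23, 5-month libraries alone 36 and 18 to 21-month libraries alone 29.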
